A study of Mus musculus with 13 samples.

Results

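The mitochondrial carriers of the mouse submandibular salivary gland (SMG) were followed by RNA-seq from the branching embryonic gland to the mature adult gland. The carriers were taken as the gene symbols that consist of Slc25a and a number, together with Ucp1, Ucp2 and Ucp3, which gave 50 of the 23364 genes measured. All 13 samples were total RNA of dissected glands of C57BL/6 mice at 6 time points: E14.5 (3 samples), E16.5 (2), E18.5 (2), postnatal day 5 (P5, 2), 4 weeks (4wk, 2) and 12 weeks (12wk, 2). For the comparisons of stages, the 7 samples of E14.5 to E18.5 formed the embryo group, the 2 samples of P5 the neonatal group, and the 4 samples of 4wk and 12wk the adult group. Each embryonic sample pooled the glands of more than one animal, sex was not ascertained before 4wk, and the 4wk and 12wk mice were male, so age and sex cannot be told apart in the adult comparisons. Values are FPKM, reads per kilobase of transcript scaled to the reads of the sample, which are per length and so allow levels of different genes to be compared.

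Carriers of the Slc25 family are small membrane proteins, nearly all of the inner mitochondrial membrane, that move metabolites between the cytosol and the mitochondrial matrix. The ADP/ATP and phosphate carriers serve ATP synthesis, the aspartate-glutamate and oxoglutarate carriers form the malate-aspartate shuttle that brings reducing equivalents into the matrix, and other members carry citrate, amino acids, acylcarnitine, iron and cofactors. The uncoupling proteins belong to the same family, and UCP1 makes brown fat release the energy of the proton gradient as heat. The striated duct cells of salivary glands are known for densely packed mitochondria, which supply ATP for salt transport.

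The samples rested on 5817081 to 48311700 reads on genes, and the 2 samples of 4wk were the shallowest (5817081 and 7957683). The 10 most abundant genes of a sample took between 5.9% and 31.1% of all FPKM up to P5 and between 48.1% and 61.1% in the adult, which left a smaller share for the other genes. Values are therefore given as deposited and after division by a median-of-ratios scaling factor (rescaled FPKM). The factors were 1.15 to 1.38 for the embryo, 1.09 and 1.03 for P5, and 0.617 to 0.714 for the adult. Over the 14650 genes with at least 1 FPKM in 1 sample, the median log2 fold change of adult minus embryo was -0.75 as deposited and -0.08 rescaled. In a bulk sample, fewer cells of a type and less RNA per cell cannot be told apart.

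The first replicates of P5 and 4wk were rich in adipocyte transcripts. The summed FPKM of 6 adipocyte markers (Adipoq, Plin1, Cidea, Cidec, Lep and Fabp4) was 1220 in P5 replicate 1 and 345 in P5 replicate 2, and 780 in 4wk replicate 1 against 54.1 in 4wk replicate 2. It lay between 24.9 and 402 in the embryo, with the highest value in E18.5 replicate 1, and was 66.7 and 80.3 in the 12wk samples. Up to E16.5 nearly all of the sum was Fabp4 (24.3 to 153), and Adipoq was at most 0.109. From embryo to P5, 5 of the 6 markers rose on both scales. Results from embryo to P5 and between the later time points are therefore also given without P5 replicate 1 and 4wk replicate 1. That leaves P5 replicate 2 and 4wk replicate 2 as the only samples of their time points. The spread in those fits then comes from the other samples, and their differences are not replicated at P5. P5 replicate 2 also held adipocyte transcripts (Adipoq 27.6 and Cidea 22.0 FPKM, against at most 18.2 in the embryo). These fits thus do not free comparisons with P5 of adipocytes. Markers of other cells also moved with age. Of these, 6 of 6 markers of cycling cells fell from embryo (summed FPKM 306 to 411) to adult (2.59 to 31.5). For striated muscle 4 of 6 markers fell (rescaled sum 2.62 to 706 in the embryo, 1.83 to 25.9 in the adult), where voom called 1 as deposited. Acinar markers rose for 6 of 6, and their sum went from 40.6 to 1960 up to 56800 to 81900. Most of the adult acinar sum was Prol1 (49800 to 81000), while Aqp5 had 163 and 170 at E18.5 and 141 and 137 at 12wk. Duct markers (4 of 6 higher and 1 lower as deposited, 5 higher and 1 lower rescaled) went from 34.4 to 312 in the embryo up to 17600 to 20700 in the adult, so the defining markers of the gland were present. Neuron markers, of which 5 of 6 were tested, went from 27.2 to 101 down to 2.89 to 4.96, and 4 of the 5 were lower as deposited and 3 rescaled. Erythroid markers (4 of 6 lower) went from 77.5 to 3060 down to 2.91 to 4.45, with Hba-a1 listed at 0 in every sample. The part of these cells in the results below was not tested.

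**Figure D1:**
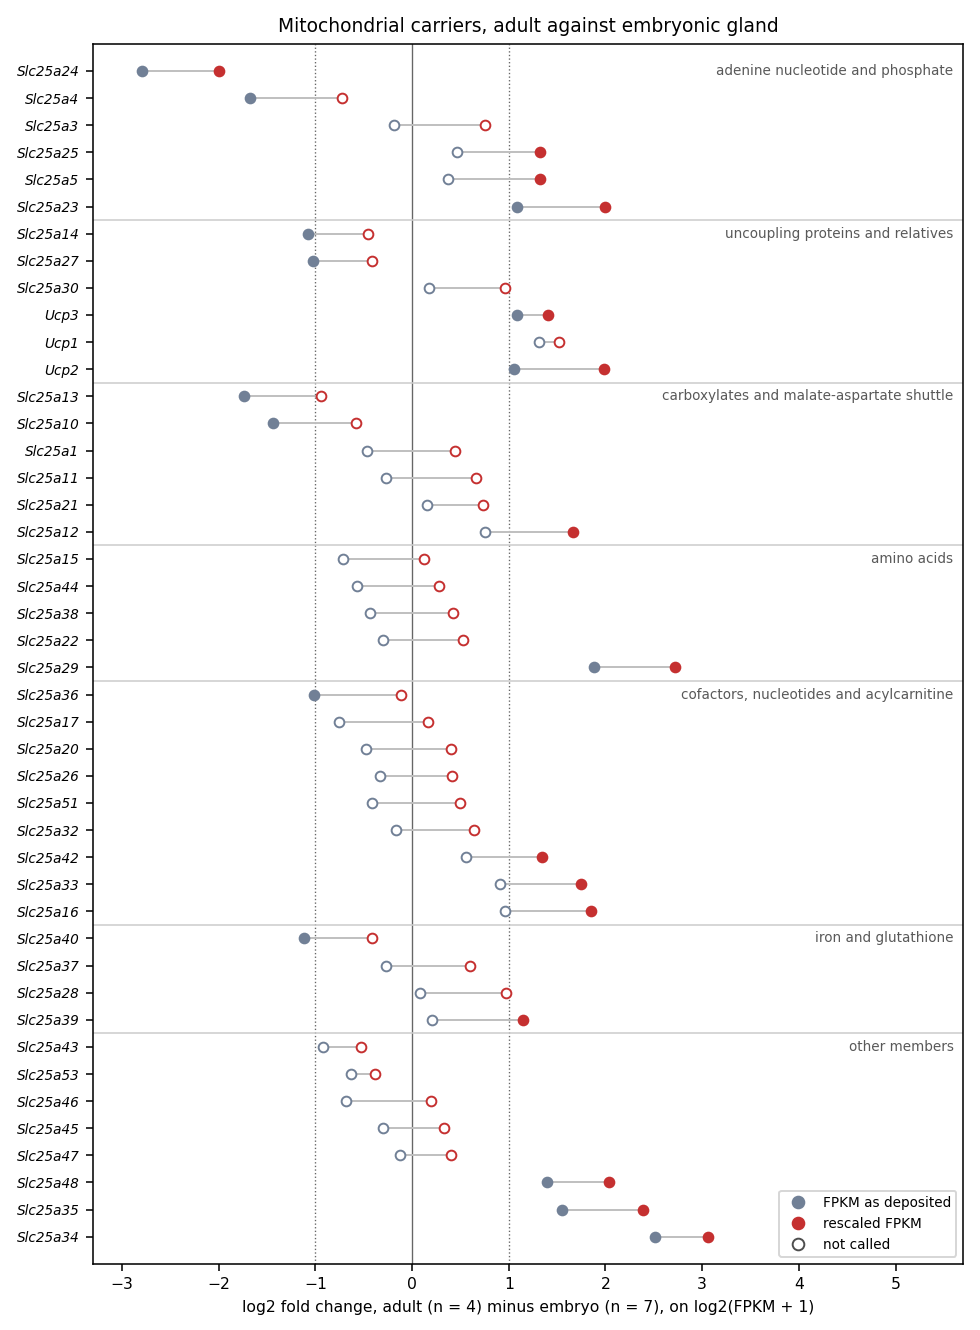
Log2 fold change of 44 of the 45 carriers that passed the filter, adult (n = 4) minus embryo (n = 7), on the log2(FPKM + 1) scale, as deposited (grey) and rescaled (red), ordered by role. Filled points were called and open points were not; dotted lines mark a change of 1. As deposited 7 carriers were higher and 8 lower, and after rescaling 14 were higher and 1, Slc25a24, was lower.

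Of the 50 carriers, 45 passed the filter and entered the test. The 5 that did not, Slc25a2, Slc25a18, Slc25a31, Slc25a41 and Slc25a54, had at most 0.231 FPKM and at most 14 reads in any sample. A difference was called in limma at an absolute log2 fold change of at least 1 and a Benjamini-Hochberg adjusted p below 0.1 over all 14650 genes. From embryo to adult as deposited, 7 carriers were called higher, 15.6% of those tested where 5.58% of all genes were, and 8 lower (17.8% against 38.0%). After rescaling, 14 were called higher (31.1% against 13.8% of all genes) and 1 lower (2.22% against 14.7%), and the median log2 fold change was 0.60 for the carriers and -0.08 for all genes. The count of lower carriers depended on the method, with 17 higher and 4 lower both at a pseudocount of 0.1 and with voom on recovered reads. On both scales 8 carriers had the same call: Slc25a23, Slc25a29, Slc25a34, Slc25a35, Slc25a48, Ucp2 and Ucp3 rose and Slc25a24 fell. The sign of the fold change differed between the scales for 17 of the 45. Over all genes, the rescaled test called 2019 higher and 2147 lower from embryo to adult and 887 and 1249 from P5 to adult, and scaling to the total without the 100 most abundant genes gave 1553 and 2792, and 520 and 2027, with medians of -0.27 and -0.31 and with 13 carriers higher and 3 lower, and 4 and 4.

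From embryo to P5, 7 carriers were called higher as deposited (15.6% against 4.14% of all genes) and 2 lower (4.44% against 8.14%). After rescaling 10 were higher (22.2% against 5.55%) and none of the 45 was lower in limma (571 genes in all, 3.9%), where 4 were lower at an unadjusted p under 0.05 and voom on recovered reads called 1. Slc25a23, Slc25a34, Slc25a42, Slc25a48, Ucp1 and Ucp3 were among those that rose on both scales. Without P5 replicate 1 the number of carriers called went from 9 to 3 as deposited and from 10 to 1 rescaled, and that 1 was Slc25a34. In that fit, and without both adipocyte-rich samples, P5 replicate 2 is the only P5 sample, so no spread within P5 enters. Without both, the rescaled changes were 1.36 (Slc25a23), 2.69 (Slc25a34), 1.31 (Slc25a42), 1.2 (Slc25a48) and 5.45 (Ucp1). From P5 to adult, 1 carrier was called higher as deposited (2.22% against 2.31% of all genes) and 8 lower (17.8% against 20.8%), while 8 were higher after rescaling (17.8% against 6.05%) and 3 lower (6.67% against 8.53%). Slc25a29 rose, and Slc25a24, Slc25a27 and Ucp1 fell, on both scales. Without both adipocyte-rich samples their changes were 1.25, -1.72, -1.74 and -5.79 as deposited and 1.89, -1.19, -1.35 and -5.69 rescaled. The only P5 sample was then replicate 2, which itself held adipocyte transcripts, so that fit does not remove them from this comparison.

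The sum of all 50 carriers lay between 1361 and 1904 FPKM as deposited in the 13 samples, with overlap between the stages. Rescaled, it was between 1198 and 1528 in the embryo, 1611 and 1385 (P5), and between 2137 and 2398 in the adult. Ucp1 alone gave 285.3 of the 1611 in P5 replicate 1, 57.43 of the 1385 in P5 replicate 2, and 149.0 in 4wk replicate 1. Slc25a3, Slc25a4 and Slc25a5 together made up between 44.4% (P5 replicate 1, with its high Ucp1) and 70.6% (E14.5 replicate 2) of the sum of all carriers. After these, Slc25a39 and Slc25a11 had the highest levels, with means over the time points of 103 and 54.2 rescaled FPKM.

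Of the 6 adenine nucleotide and phosphate carriers tested, 1 was higher and 2 were lower from embryo to adult as deposited, and 3 were higher and 1 lower rescaled. Slc25a4 and Slc25a5 encode the ADP/ATP carriers ANT1, the heart and muscle form, and ANT2, a form of proliferating tissues. Slc25a4 had between 291.1 and 570.9 FPKM in the embryo (median 489.1, n = 7), 197.9 and 203.0 (P5), 149.1 and 141.4 (4wk), and 134.1 and 114.5 (12wk). As deposited the stages did not overlap. The log2 fold change of adult minus embryo was -1.68 ± 0.19 (SE; adjusted p = 3.4e-06) as deposited, a fall, and -0.73 ± 0.18 (adjusted p = 0.0037) rescaled, which was under the size needed for a call. Within the embryo Slc25a4 had 489.1 to 570.9 (E14.5), 527.5 and 368.6 (E16.5), and 291.1 and 322.6 (E18.5). The striated muscle markers summed to 120 to 367 (E14.5), 471 and 975 (E16.5), and 3.20 and 23.3 (E18.5). E16.5 replicate 2, with the highest muscle sum, had the lower Slc25a4 of its pair. The part of muscle in these values was not tested.

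Slc25a5 had between 339.8 and 445.5 FPKM in the embryo (median 402.2), 349.7 and 366.8 (P5), and 493.2, 540.2, 520.5 and 495.2 in the adult. All adult samples were above all others. As deposited the adult minus embryo change was 0.37 ± 0.12 (adjusted p = 0.012), too small for a call, and rescaled it was 1.32 ± 0.14 (adjusted p = 4.1e-06), a rise. Markers of cycling cells fell over the same interval. The ratio of Slc25a5 to Slc25a4 within a sample does not depend on the scaling. It was 0.695 to 0.796 (E14.5), 0.845 and 1.0 (E16.5), 1.23 and 1.25 (E18.5), 1.77 and 1.81 (P5), 3.31 and 3.82 (4wk), and 3.88 and 4.32 (12wk), so each later time point lay above the one before it. This pair and the pairs below were chosen after their values were seen, and their ratios are given as a description with no test.

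**Figure D2:**
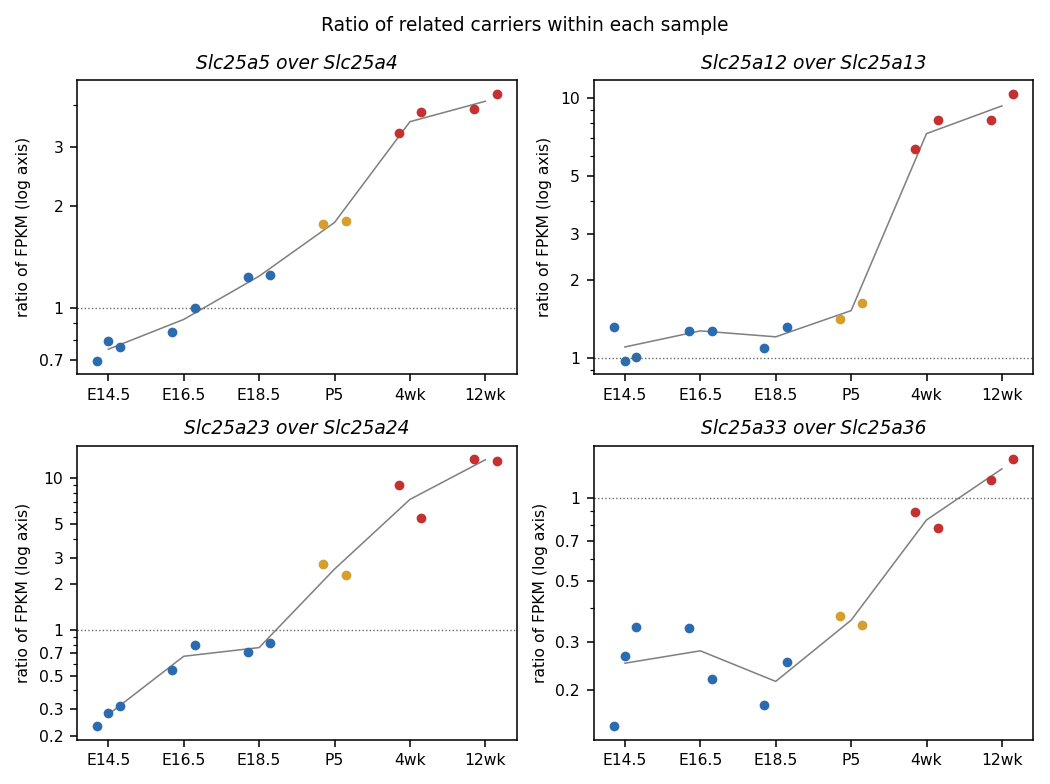
Ratio of the FPKM of 4 pairs of related carriers within each sample, on a log axis, by time point (blue embryo, yellow P5, red adult; points are samples, lines join the means). The ratio of Slc25a5 to Slc25a4 went from 0.695 in the lowest E14.5 sample to 4.32 in the highest 12wk sample, and in all 4 pairs every adult sample lay above every embryonic sample.

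Slc25a3, the carrier that brings phosphate into the matrix, was among the 3 most abundant members throughout. It had between 249.0 and 347.9 FPKM in the embryo (median 276.2), 231.6 and 223.2 (P5), and 255.8, 259.0, 237.8 and 233.2 in the adult. Embryonic and adult samples overlapped as deposited (log2 fold change -0.19 ± 0.12, adjusted p = 0.16), while rescaled the adult values, 348.9 to 419.5, were above the embryonic ones, 186.3 to 254.8 (0.75 ± 0.12, adjusted p = 0.00013, under the size for a call). Slc25a31, the testis form of the ADP/ATP carrier, had at most 0.177 FPKM in any sample.

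The ATP-Mg/phosphate carriers Slc25a23, Slc25a24 and Slc25a25 exchange ATP-Mg for phosphate under control of calcium and set the adenine nucleotide pool of the matrix. Slc25a24 had between 17.45 and 37.28 FPKM in the embryo (median 23.73), 11.25 and 11.43 (P5), and 2.693, 4.197, 2.520 and 1.944 in the adult. It was lower at each stage with no overlap, and adult minus embryo was -2.79 ± 0.20 as deposited (adjusted p = 5.8e-08) and -2.0 ± 0.19 rescaled (adjusted p = 1.7e-06). Slc25a23 had between 8.445 and 18.95 FPKM in the embryo (median 12.17), 30.86 and 26.27 (P5), and 24.34, 22.95, 33.67 and 25.41 in the adult. The adult and P5 samples overlapped as deposited, and both were above every embryonic sample. Adult minus embryo was 1.09 ± 0.20 as deposited (adjusted p = 0.0002; 0.97 and not called without 12wk replicate 1) and 1.99 ± 0.20 rescaled (adjusted p = 2.1e-06).

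The ratio of Slc25a23 to Slc25a24 was 0.232 to 0.317 (E14.5), 0.543 and 0.799 (E16.5), 0.712 and 0.819 (E18.5), 2.74 and 2.30 (P5), 9.04 and 5.47 (4wk), and 13.4 and 13.1 (12wk). The pair thus changed order between E18.5 and P5. Slc25a25 had 6.383 to 9.166 FPKM in the embryo, 7.313 and 5.221 (P5), and 11.19, 8.715, 12.32 and 12.73 in the adult. It was called higher in the adult rescaled (1.32 ± 0.13, adjusted p = 1.4e-06) and had a change of 0.46 ± 0.13 as deposited (adjusted p = 0.0066).

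The sequences just upstream of the annotated starts are shown for the carriers of these pairs and of the aspartate-glutamate pair, since the ratio within each of these pairs changed with age. They are the 120 bases before the start, from RefSeq on GRCm38.p6, 5′ to 3′ on the strand of the gene; capitals mark a CCAAT box (CCAAT) or a GC box (GGGCGG) on either strand.
Slc25a4, chr8:46211063-46211182, minus strand: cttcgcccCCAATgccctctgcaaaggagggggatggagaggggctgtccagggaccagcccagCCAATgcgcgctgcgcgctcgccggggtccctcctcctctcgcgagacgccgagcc
Slc25a5, chrX:36795477-36795596, plus strand: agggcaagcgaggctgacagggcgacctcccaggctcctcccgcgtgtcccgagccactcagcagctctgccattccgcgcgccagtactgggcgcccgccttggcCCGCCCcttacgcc
Slc25a24, chr3:109123029-109123148, plus strand: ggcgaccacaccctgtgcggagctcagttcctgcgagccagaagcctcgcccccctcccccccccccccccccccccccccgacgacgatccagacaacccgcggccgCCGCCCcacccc
Slc25a23, chr17:57059864-57059983, minus strand: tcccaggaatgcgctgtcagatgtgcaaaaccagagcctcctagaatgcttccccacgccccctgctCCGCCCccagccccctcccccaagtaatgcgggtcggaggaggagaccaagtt
Slc25a12, chr2:71367756-71367875, minus strand: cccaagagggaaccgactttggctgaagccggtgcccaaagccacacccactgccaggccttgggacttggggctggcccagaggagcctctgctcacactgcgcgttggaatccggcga
Slc25a13, chr6:6217174-6217293, minus strand: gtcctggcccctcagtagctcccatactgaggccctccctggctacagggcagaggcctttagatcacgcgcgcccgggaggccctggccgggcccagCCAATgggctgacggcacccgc
The stretches of Slc25a4 (71.7% G or C) and Slc25a13 (70.8%) held CCAAT boxes, those of Slc25a5 (72.5%), Slc25a24 (78.3%) and Slc25a23 (62.5%, the first of 2 windows listed) a GC box, and that of Slc25a12 (65.0%) neither.

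Promoter windows of 300 bases (250 before and 50 after the start) were listed for 39 of the 50 carriers and for 27025 genes in all. The GC box (GGGCGG) was in the windows of 31 of the 39 carriers, 79.5%, against 38.2% of all genes, and the CCAAT box (CCAAT) in 19, 48.7% against 41.1%. The E-box CACGTG was in 7 of 39 (17.9% against 8.09%), among them Slc25a1, Slc25a13 and Slc25a33, and the TATA box TATAAA in 2 (5.13% against 15.7%). The nuclear respiratory factor 1 core GCGCATGC was in the windows of 2 (5.13% against 3.05%), the cyclic AMP response element TGACGTCA in 2, Slc25a25 and Slc25a36 (5.13% against 2.03%), the ETS family element CCGGAAGT in 1, Slc25a20 (2.56% against 4.31%), and the estrogen-related receptor element TCAAGGTCA in 0 of 39 (126 genes in all, 0.466%). Both strands were searched, and a match in letters is a description and not a binding site.

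**Figure D3:**
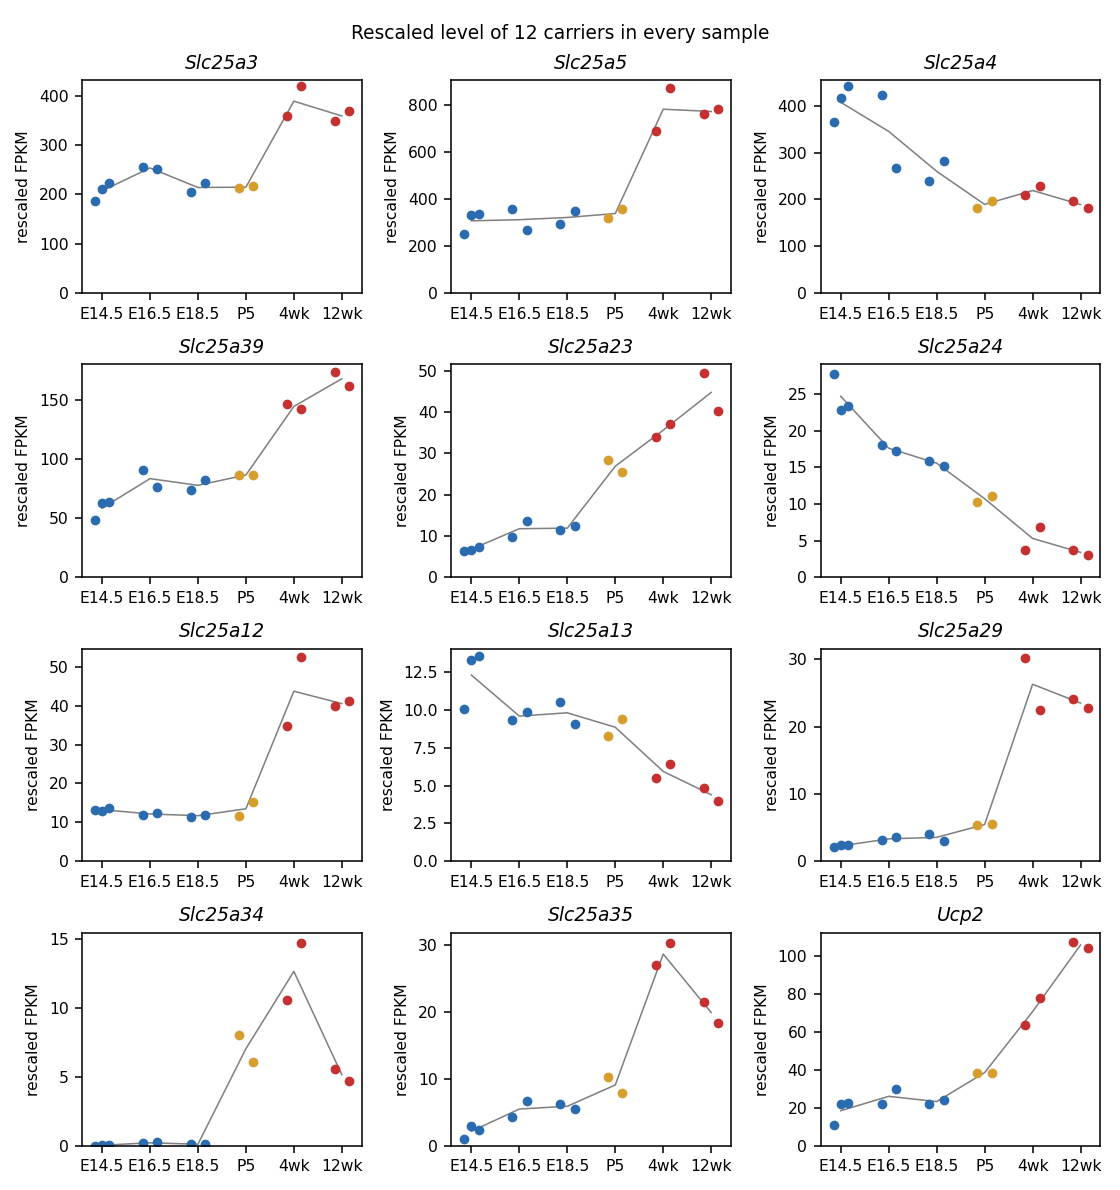
Rescaled FPKM of 12 carriers in every sample by time point (blue embryo, yellow P5, red adult; points are samples, lines join the means of a time point). Every adult sample lay below every embryonic one for Slc25a24 and above it for Slc25a23 and Slc25a12, and Slc25a34 was at most 0.232 in every embryonic sample and at least 4.71 in every later one.

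Of the 6 uncoupling proteins and relatives, 2 were higher and 2 lower from embryo to adult as deposited, and 2 were higher rescaled. Ucp1 was highest in the samples rich in adipocyte transcripts. It had 310.8 FPKM in P5 replicate 1 and 59.21 in P5 replicate 2, and 106.4 in 4wk replicate 1 but 0 in 4wk replicate 2. In the embryo it had at most 0.0815 up to E16.5 and 5.33 and 0.319 (E18.5), and at 12wk it had 0 and 0.278. Cidea, a gene of brown adipocytes, was likewise highest in the first replicates of P5 (107 against 22.0), 4wk (80.8 against 0) and E18.5 (18.2 against 0.609). Ucp1 rose from embryo to P5 by 6.63 ± 1.40 on the log2 scale as deposited (adjusted p = 0.0058) and the change from P5 to adult was -5.32 ± 1.52 (adjusted p = 0.012). With P5 replicate 1 alone left out the first change was 5.45 and the second -4.14, and neither was called. Without both adipocyte-rich samples they were 5.45 and -5.79. In both fits P5 replicate 2 is the only P5 sample, so the spread comes from the other groups, and the first change is the same.

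Ucp2 and Ucp3 lie next to each other, 6.9 kb apart on chromosome 7. Ucp2 had between 14.54 FPKM (E14.5 replicate 1) and 41.15 in the embryo (median 27.85), 41.90 and 39.67 (P5), 45.25 and 48.10 (4wk), and 73.16 and 65.91 (12wk). All adult samples were above all embryonic ones, and Ucp2 rose by 1.05 ± 0.22 as deposited (adjusted p = 0.00055) and by 1.98 ± 0.22 rescaled (adjusted p = 5.5e-06). As deposited it fell under the size for a call without E14.5 replicate 1 (0.91), 12wk replicate 1 (0.93) or 12wk replicate 2 (0.98). Markers of leukocytes, cells in which Ucp2 is known to be expressed, were called higher for 1 of 6 genes as deposited and 4 of 6 rescaled. Their summed FPKM was 34.8 to 104 in the embryo, 127 and 119 (P5), 165 and 109 (4wk), and 141 and 121 (12wk). Most of the adult sum was Lyz2 (88.5 to 134). The part of leukocytes in the rise of Ucp2 was not tested. Ucp3, a muscle and brown fat member, had at most 0.176 FPKM (14 reads) in the embryo, 3.382 and 0.978 (P5), 4.705 and 0.513 (4wk), and 0.974 and 0.489 (12wk). It was higher in the adipocyte-rich sample of each pair. It rose from embryo to adult (1.09 ± 0.32 as deposited, adjusted p = 0.0066, and 1.41 ± 0.33 rescaled, adjusted p = 0.0024), and without both adipocyte-rich samples the change was 0.64 and 0.93, under the size for a call.

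Of the relatives of the uncoupling proteins, Slc25a27, known from brain, had 2.114 to 6.304 FPKM in the embryo (median 3.449), 7.842 and 6.072 (P5), and 1.663, 0.514, 1.757 and 1.257 in the adult. The change from P5 to adult was -1.82 ± 0.32 as deposited (adjusted p = 0.00081) and -1.40 ± 0.30 rescaled (adjusted p = 0.0047), on 26 and 11 reads at 4wk and 103 and 96 (12wk). Neuron markers also fell over this interval, from a summed FPKM of 21.0 and 45.2 in the P5 samples to 2.89 to 4.96 in the adult. Of 5 tested, 3 were lower from P5 to adult as deposited and 2 rescaled. From embryo to P5 the directions differed: Slc25a27 changed by 0.79 as deposited and 0.98 rescaled, and the median of the neuron markers by -0.63 and -0.39. In P5 replicate 1 Slc25a27 was the higher of the pair and the neuron sum the lower. The part of neurons in the fall of Slc25a27 was not tested. Slc25a14 had 1.795 to 5.342 FPKM in the embryo and 0.973 to 1.351 in the adult, and was called lower as deposited alone (-1.08 ± 0.20, and -0.46 ± 0.18 rescaled). Slc25a30 had 3.270 to 5.533 in the embryo, 2.657 and 2.697 (P5), 3.527 and 3.315 (4wk), and 7.387 and 6.474 (12wk), and rose from P5 to adult rescaled (1.26 ± 0.28, adjusted p = 0.0057).

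The aspartate-glutamate carriers of the malate-aspartate shuttle, aralar (Slc25a12) and citrin (Slc25a13), differed in course. Slc25a12 had between 13.78 and 17.88 FPKM in the embryo (median 16.84), 12.73 and 15.81 (P5), and 24.87, 32.45, 27.15 and 26.07 in the adult. Every adult sample was above every earlier one. The change from P5 to adult was 0.91 ± 0.16 as deposited (adjusted p = 0.00094), under the size for a call, and 1.57 ± 0.16 rescaled (adjusted p = 2.6e-05), a rise. Slc25a13 had between 10.41 and 17.53 FPKM in the embryo (median 13.51), 9.016 and 9.708 (P5), and 3.909, 3.945, 3.288 and 2.512 in the adult. It fell as deposited (adult minus embryo -1.74 ± 0.16, adjusted p = 3.2e-07), and rescaled the change was -0.94 ± 0.14 (adjusted p = 7.7e-05), just under the size for a call. The ratio of Slc25a12 to Slc25a13 stayed between 0.974 and 1.32 in the embryo and was 1.41 and 1.63 (P5), 6.36 and 8.23 (4wk), and 8.26 and 10.4 (12wk), and the widest gap lay between P5 and 4wk. Of the 6 carboxylate carriers tested, none of the 6 was higher and 2 were lower from embryo to adult as deposited, and 1 was higher and none of the 6 lower rescaled.

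Slc25a1, which exports citrate for fatty acid synthesis, was highest in the adipocyte-rich sample of 4wk. It had 25.62 to 42.70 FPKM in the embryo (median 30.53), 27.75 and 23.25 (P5), 47.84 and 22.92 (4wk), and 14.75 and 14.48 (12wk). The 4wk replicates differed, and replicate 1 was the higher one. Rescaled, Slc25a1 rose from P5 to 4wk (1.03 ± 0.21, adjusted p = 0.0031) and fell again by 12wk (-1.13 ± 0.21, adjusted p = 0.0051), and without 4wk replicate 1 these changes were 0.61 and -0.71, under the size for a call. The oxoglutarate carrier Slc25a11, the partner of aralar and citrin in the shuttle, had 45.09 to 61.89 FPKM in the embryo, 56.77 and 53.71 (P5), 55.98 and 50.37 (4wk), and 38.83 and 38.42 (12wk); neither scale called it between stages. The dicarboxylate carrier Slc25a10 had 11.70 to 25.58 FPKM in the embryo and 5.403 to 6.704 in the adult and was called lower as deposited alone (-1.44 ± 0.17, and -0.58 ± 0.16 rescaled). Slc25a21 stayed between 0.935 and 1.772 FPKM.

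Of the 5 amino acid carriers tested, Slc25a29, a carrier of basic amino acids, was called between embryo and adult. It had between 2.799 and 4.961 FPKM in the embryo (median 3.515), 5.923 and 5.675 (P5), 21.53 and 13.82 (4wk), and 16.45 and 14.43 (12wk). The stages did not overlap, and the step lay between P5 and the adult. It rose from P5 to adult by 1.35 ± 0.22 as deposited (adjusted p = 0.00056) and 1.99 ± 0.20 rescaled (adjusted p = 2.3e-05), and adult minus embryo was 1.88 ± 0.16 and 2.72 ± 0.15 (adjusted p = 2.4e-07 and 8.8e-09). Its neighbour Slc25a47 lies 15.2 kb away on chromosome 12 on the other strand and was not called between stages with every sample included (0.849 to 2.833 FPKM in the embryo, 2.699 and 2.582 at P5, 8.160 and 1.193 at 4wk, 0.406 and 0.401 at 12wk). The ornithine carrier Slc25a15, the glutamate carrier Slc25a22, Slc25a38, which serves heme synthesis, and the branched-chain amino acid carrier Slc25a44 had fold changes of adult minus embryo between -0.71 and -0.30 as deposited and between 0.12 and 0.53 rescaled, and neither scale called any of the 4.

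**Figure D4:**
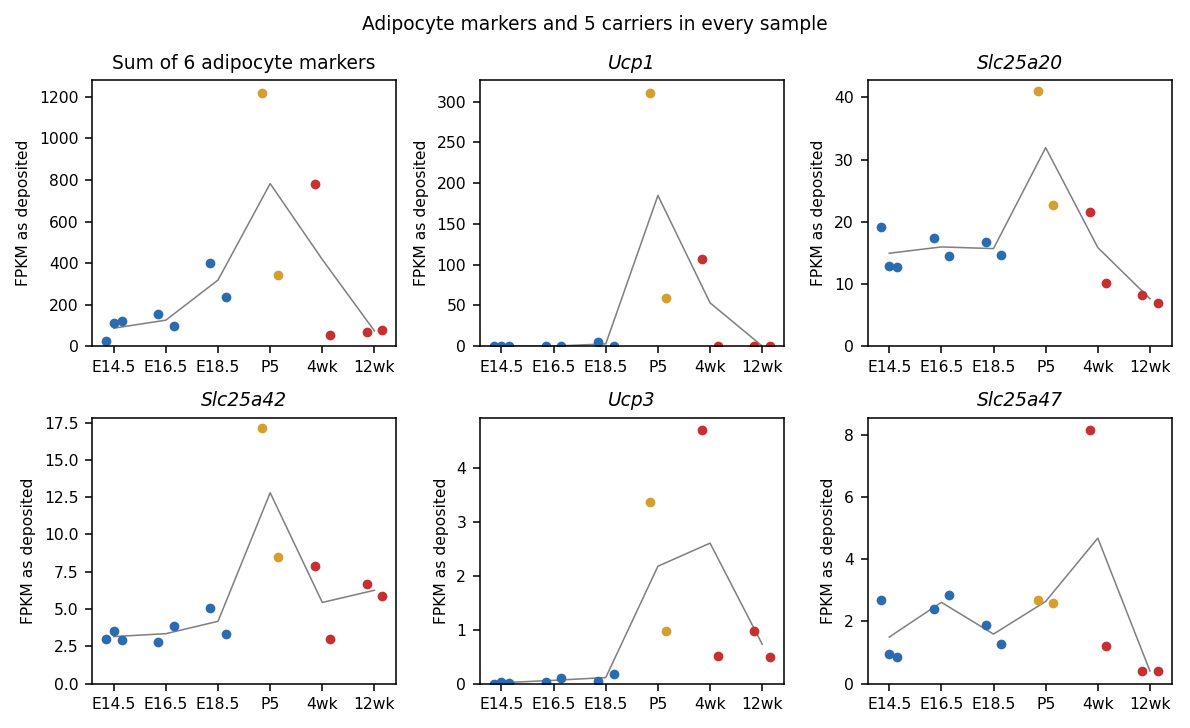
FPKM as deposited of 6 adipocyte markers summed and of 5 carriers in every sample by time point (blue embryo, yellow P5, red adult; the left point of a pair is replicate 1, lines join the means). P5 replicate 1 (marker sum 1220) and 4wk replicate 1 (780) lay above their partners (345 and 54.1), and each of the 5 carriers was higher in them than in their partners.

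Slc25a20 and Slc25a42, which carry acylcarnitine and coenzyme A, were highest in P5 replicate 1. Slc25a20 had 41.05 FPKM in P5 replicate 1 and 22.78 in replicate 2, 21.50 and 10.22 (4wk), 12.70 to 19.23 in the embryo, and 8.302 and 6.944 (12wk). Slc25a42 had 17.12 and 8.478 (P5), 7.912 and 2.971 (4wk), 2.817 to 5.053 in the embryo, and 6.675 and 5.844 (12wk). In P5 replicate 2 both were still above every embryonic sample. Over all carriers tested, 5 of 45 (11.1%) had a ratio of replicate 1 to replicate 2, each plus 1 FPKM, of at least 1.5 for P5, against 2.1% of all genes, and 13 of 45 (28.9%) at 4wk against 14.4%, while at 12wk none of 45 (0.0%) did, against 1.62%. At E18.5, where the adipocyte markers summed to 402 and 235 in replicates 1 and 2, it was 1 of 45 (2.22%) against 1.99%. From embryo to P5, Slc25a42 rose by 1.56 ± 0.30 as deposited (adjusted p = 0.0033) and by 1.74 ± 0.28 rescaled (adjusted p = 0.0023). With P5 replicate 2 as the only P5 sample the changes were 1.09 and 1.31, whether or not 4wk replicate 1 was left out too. Without P5 replicate 1 alone neither scale called it. Slc25a20 rose rescaled (1.20 ± 0.30, adjusted p = 0.019) and had 0.83 without both adipocyte-rich samples, which was not called.

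Of the 10 cofactor, nucleotide and acylcarnitine carriers tested, 1 was lower from embryo to adult as deposited and 3 were higher rescaled. Slc25a16, linked to coenzyme A, had 7.249 to 16.28 FPKM in the embryo, 21.39 and 20.59 (P5), and 20.70 to 25.32 in the adult. It was called higher rescaled (adult minus embryo 1.85 ± 0.21, adjusted p = 5.7e-06) and had 0.96 ± 0.19 as deposited (adjusted p = 0.00039). The pyrimidine nucleotide carriers Slc25a33 and Slc25a36 were a further pair. Slc25a33 had 4.208 to 6.808 FPKM in the embryo, 6.473 and 5.660 (P5), and 11.63, 7.163, 12.45 and 13.75 in the adult, and Slc25a36 had 16.52 to 30.50, 17.35 and 16.31, and 9.196 to 13.08. Slc25a33 was called higher rescaled (1.75 ± 0.16, and 0.91 ± 0.17 as deposited) and Slc25a36 lower as deposited (-1.01 ± 0.15, and -0.12 ± 0.13 rescaled), and their ratio went from 0.148 to 0.339 in the embryo up to 0.779 to 1.39 in the adult.

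Slc25a17, a carrier of cofactors in the peroxisome, was called in the last interval. As deposited it had 43.38 to 66.60 FPKM in the embryo, 48.66 and 48.01 (P5), 48.05 and 50.05 (4wk), and 20.78 and 20.09 (12wk), and it fell between 4wk and 12wk (rescaled -1.22 ± 0.17, adjusted p = 0.00097). The NAD carrier Slc25a51, the folate carrier Slc25a32 and the S-adenosylmethionine carrier Slc25a26 had changes of adult minus embryo between -0.42 and -0.17 as deposited and between 0.41 and 0.64 rescaled, with no call.

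Slc25a39, the glutathione carrier, had between 65.34 and 113.3 FPKM in the embryo (median 89.70), 93.91 and 89.66 (P5), and 104.8, 88.08, 118.6 and 102.7 in the adult. The stages overlapped as deposited (0.21 ± 0.14, adjusted p = 0.20), and rescaled the adult values, 142.7 to 174.0, were above all embryonic ones (1.15 ± 0.15, adjusted p = 2.4e-05). Its relative Slc25a40 had 4.494 to 7.038 FPKM in the embryo, 5.331 and 5.050 (P5), and 0.989 to 2.983 in the adult, and was called lower as deposited (-1.12 ± 0.18, and -0.41 ± 0.19 rescaled). The mitoferrins bring iron into the matrix, mitoferrin 1 (Slc25a37) chiefly in erythroid cells. Slc25a37 had 10.09 to 19.98 FPKM in the embryo, 16.45 and 13.96 (P5), 7.889 and 7.910 (4wk), and 13.79 and 12.73 (12wk), and mitoferrin 2 (Slc25a28) had 9.641 to 19.24, 22.96 and 19.94, 13.56 and 11.96, and 15.21 and 14.51. Neither was called between stages on either scale (Slc25a28 adult minus embryo 0.97 ± 0.16 rescaled, 0.08 ± 0.16 as deposited), while the erythroid enzyme Alas2 went from 55.3 to 156 FPKM in the embryo down to 2.54 to 4.26 in the adult.

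The 3 members that rose on both scales among those of less settled function were Slc25a34, Slc25a35 and Slc25a48. Slc25a34 had between 0 and 0.320 FPKM in the embryo (median 0.103, at most 32 reads), 8.744 and 6.242 (P5), 7.563 and 9.090 (4wk), and 3.810 and 2.977 (12wk). Every later sample was above every embryonic one. It rose from embryo to P5 by 2.91 ± 0.29 as deposited (adjusted p = 7.7e-05) and by 2.87 ± 0.30 rescaled (adjusted p = 0.00015). Without both adipocyte-rich samples, with P5 replicate 2 alone, the rescaled rise was 2.69. Slc25a34 fell from 4wk to 12wk (rescaled -1.14 ± 0.18, adjusted p = 0.002), and without 4wk replicate 2 the change was -0.92, under the size for a call. The value of 6.242 FPKM was in P5 replicate 2, which had fewer adipocyte transcripts than replicate 1 but was not free of them. The value of 9.090 was in 4wk replicate 2, where Ucp1 was at 0. The part of adipocytes in the values of Slc25a34 was not tested.

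Slc25a35 had between 1.419 (E14.5 replicate 1) and 9.125 FPKM in the embryo, 11.24 and 8.099 (P5), 19.29 and 18.78 (4wk), and 14.62 and 11.67 (12wk). Every adult sample was above every earlier one, and adult minus embryo was 1.55 ± 0.33 as deposited (adjusted p = 0.00063) and 2.39 ± 0.32 rescaled (adjusted p = 2.4e-05). Slc25a48 had 0.208 to 0.375 (E14.5), 1.123 and 1.306 (E16.5), 2.810 and 2.490 (E18.5), 4.131 and 3.340 (P5), 6.656 and 3.607 (4wk), and 3.824 and 3.874 (12wk). Its values did not overlap between the embryonic time points, and adult minus embryo was 1.40 ± 0.32 (adjusted p = 0.0011) and 2.04 ± 0.29 (adjusted p = 4.9e-05). Slc25a43, Slc25a45, Slc25a46, an outer membrane member, Slc25a47 and Slc25a53 were not called between stages on either scale with every sample included. Without both adipocyte-rich samples the change of Slc25a47 from P5 to adult was -1.14 as deposited, with P5 replicate 2 as the only P5 sample.

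Between consecutive time points, tested rescaled, 1 of 45 carriers was called from E14.5 to E16.5 (2.22% against 4.39% of all genes), Slc25a35, which rose by 1.08 ± 0.26 (adjusted p = 0.017). None of 45 was called from E16.5 to E18.5 in limma (0.0% against 2.48%, 364 genes), where 2 were higher and 2 lower at an unadjusted p under 0.05 and voom on recovered reads called 1. From E18.5 to P5, 5 were called (11.1% against 4.16%), all higher: Slc25a34 (2.86 ± 0.18), Ucp1 (5.63 ± 1.71), Slc25a42 (1.48 ± 0.33), Slc25a23 (1.11 ± 0.16) and Slc25a20 (1.07 ± 0.30). Without both adipocyte-rich samples, with P5 replicate 2 alone, Slc25a20 had 0.70, under the size for a call. Slc25a34 (2.68), Ucp1 (4.48), Slc25a42 (1.05) and Slc25a23 (1.04) were over it. The call of Ucp1 with every sample was near the threshold (adjusted p = 0.056 in limma). It was lost at a pseudocount of 0.1 (6.62) and when any single sample of E18.5 or P5 was left out (4.48 to 6.77). Slc25a20 and Slc25a42 were not called without E18.5 replicate 2 (1.02 and 1.27) or without P5 replicate 1 (0.70 and 1.05). From P5 to 4wk, 8 were called (17.8% against 15.1%): Slc25a29 (2.06 ± 0.16), Slc25a12 (1.61 ± 0.18), Slc25a35 (1.57 ± 0.28), Slc25a25 (1.21 ± 0.15), Slc25a5 (1.20 ± 0.22), Slc25a33 (1.14 ± 0.22) and Slc25a1 (1.03 ± 0.21) rose, and Slc25a27 fell (-1.61 ± 0.32). Without both adipocyte-rich samples this interval compares P5 replicate 2 alone with 4wk replicate 2 alone, so only fold changes are given. Slc25a33 (0.96) and Slc25a1 (0.70) were then under the size for a call. Slc25a16 (1.0), Slc25a21 (1.01), Slc25a34 (1.16), Slc25a38 (1.06) and Ucp1 (-5.87) reached that size. As deposited, with every sample, 1 was called higher over this interval (2.22% against 2.19% of all genes) and 6 lower (13.3% against 22.1%), where the median of all genes was -0.53. From 4wk to 12wk, 4 were called (8.89% against 6.87%), all lower: Slc25a47 (-1.90 ± 0.52), Slc25a17, Slc25a34 and Slc25a1. Without 4wk replicate 1, which leaves 4wk replicate 2 alone, Slc25a47 had -0.86 and Slc25a1 -0.71, under the size for a call. Without both adipocyte-rich samples Slc25a17 had -1.35 and Slc25a34 -1.36. Without 4wk replicate 2, which leaves 4wk replicate 1 alone, Slc25a34 had -0.92, under the size for a call.

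The genes that work with the carriers were taken as fixed lists. Both subunits of the mitochondrial pyruvate carrier rose from embryo to adult after rescaling (Mpc1 by 2.43 ± 0.22 and Mpc2 by 1.65 ± 0.24), 1 of them also as deposited, and their summed FPKM went from 60.3 to 116 up to 142 to 231. Of 17 citrate cycle enzymes, 5 were higher rescaled (among them Ogdh by 1.83 ± 0.16, Sdhb by 1.31 ± 0.18 and Idh3g by 1.30 ± 0.15) and none of the 17 was called as deposited, by limma or voom, where 3 were higher and 6 lower at an unadjusted p under 0.05. Of the 4 malate-aspartate shuttle enzymes, the cytosolic Mdh1 (1.43 ± 0.20) and Got1 (1.31 ± 0.14) were higher rescaled, the mitochondrial Mdh2 (0.39 ± 0.11) and Got2 (-0.39 ± 0.16) were not called, and as deposited 1 of the 4 was lower. All 3 carnitine shuttle enzymes tested, Cpt1a, Cpt2 and Crat, were higher rescaled (1.02 to 1.79). As deposited limma called none of the 3, 1 was higher at an unadjusted p under 0.05, and voom called 1.

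None of 9 genes of the TIM22 pathway, which inserts carriers into the inner membrane, was called rescaled by limma or voom (median -0.11, with 1 higher and 3 lower at an unadjusted p under 0.05), and 4 of 9 were lower as deposited. None of the 3 Vdac pores of the outer membrane was called rescaled by limma or voom (median -0.05, with 1 higher at an unadjusted p under 0.05), and 1 was lower as deposited. Mtch1 and Mtch2, carrier family members under other symbols, changed by -0.28 ± 0.12 and 0.12 ± 0.12 rescaled, and neither was called. As deposited Mtch1 was lower (-1.22 ± 0.13, adjusted p = 2e-06) and Mtch2 was not called (-0.81 ± 0.12). Of 11 regulators of mitochondrial biogenesis, Esrrg (4.27 ± 0.39), Esrra (1.52 ± 0.19) and Ppargc1a (1.46 ± 0.29) were higher rescaled, Nrf1 (-0.73 ± 0.14), Tfam (-0.36 ± 0.14) and Gabpa (-0.51 ± 0.13) were not called, and as deposited 1 was higher and 4 lower. Of 9 heme synthesis genes, Alas1 was higher (1.24 ± 0.20) and the erythroid Alas2 lower (-3.72 ± 0.25) rescaled. As deposited 2 of the 9 were lower, and Alas1 was not called (0.34, adjusted p = 0.14).

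On mm9, the build of the files, positions were found for 47 of the 50 carriers, on 19 chromosomes. Slc25a4 lies at chr8:47292151-47296638, Slc25a5 at chrX:34335646-34338802, Slc25a12 at chr2:71109120-71205806, Slc25a13 at chr6:5991219-6167173, Slc25a23 at chr17:57183134-57199286, Slc25a24 at chr3:108926067-108971375, Slc25a29 at chr12:110064083-110074093 and Slc25a34 at chr4:141174739-141179736. The members of these pairs thus lie on different chromosomes. Within 50 kb of each other lay 4 pairs of carriers: Ucp3 and Ucp2, Slc25a29 and Slc25a47, Slc25a43 and Slc25a5 (18.4 kb apart on chromosome X), and Slc25a41 and Slc25a23 (2.1 kb apart on chromosome 17). In the last pair Slc25a41 had at most 0.187 FPKM in any sample and Slc25a23 at least 8.445. Slc25a43 had 0.895 to 2.629 FPKM in the embryo and 0 to 0.757 in the adult, where Slc25a5 was at its highest.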

How the data were processed

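RNA from dissected submandibular glands was sequenced as 50 bp single-end reads, which the authors mapped to mm9 with TopHat2 2.0.13 and Bowtie2 2.2.6, counted per gene with featureCounts, leaving out reads with more than 1 position or gene, and turned into the deposited FPKM values with DESeq2 1.10.1, 1 file per sample (versions from the submitters' processing notes). Groups were taken from the labels. FPKM were analysed as deposited and after division by median-of-ratios factors over the 13039 genes above 0 in all 13 samples. The filter on genes, the stages and the thresholds follow the study's methods; the test, limma 3.58.1 in R 4.3.3 with a variance trend on log2(FPKM + 1) over all 13 samples, suits FPKM, and fold changes of low genes are understated on that scale. Whole reads were recovered from the steps of the FPKM values (100% of values whole, tolerance 1e-10) for depth and for a voom alternative, which called 5809 genes rescaled between embryo and adult against 4166 in limma. The read total of 1 sample, 4wk replicate 2, was halved, because with it all of its reads came out even. The limma step was tested on simulated data.

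The carriers, gene lists and markers were chosen with earlier results of these data known. Carriers named with all values were those called in the same direction on both scales, called between consecutive time points, among the 5 highest, or on a fixed list (28 in all); the rest are given by group. The labels call the replicates biological, but the embryonic ones are pools. Replicate numbers did not pair the samples (mean correlation of deviations -0.012 over 30 same-numbered pairs). Alternatives were another pseudocount, filters, scalings, groupings and thresholds, a replicate block, and leaving out samples. Positions are from GENCODE M1 (mm9) and promoter sequences from RefSeq (GRCm38.p6); no protein sequence was used here. The values of 2 genes that stand in the counts are not reported here.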

Additional observations from a re-analysis of the deposited data

Results flagged for a closer look

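In 54 sets of samples of 1 stage, over 27 named carriers, 7 samples stood apart from the others of their stage by Dixon's test on the rescaled log2 scale. Chance alone gives about 5% of such sets if the samples of a set are alike. Here the embryo and adult sets mixed time points, and some held several values of 0. The 7 therefore cannot be compared with that share. Of the 7, 4 were in 4wk replicate 1 or E18.5 replicate 1. Ucp1 had 106.4 FPKM in 4wk replicate 1, where the other adult samples had 0 to 0.278, and 5.33 in E18.5 replicate 1, where the other embryonic samples had 0 to 0.319. Slc25a48 had 6.656 FPKM in 4wk replicate 1 against 3.61 to 3.87 in the other adult samples. Slc25a42 had 5.053 FPKM in E18.5 replicate 1 against 2.82 to 3.88 in the other embryonic samples. The adipocyte markers summed to 780 FPKM in 4wk replicate 1 and 402 in E18.5 replicate 1, and their part in these values was not tested.

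In E14.5 replicate 1, Ucp2 had 14.54 FPKM against 27.0 to 41.2 in the other embryonic samples, and Slc25a25 had 6.383 against 7.67 to 9.17; the erythroid markers summed to 3060 FPKM in that sample and to 77.5 to 792 in the other 6. Slc25a31 had 0.02172 FPKM in 12wk replicate 1, which was 1 read, and was listed at 0 in the other 3 adult samples.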

How the results depend on the processing

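No fold change of a named carrier that was called changed sign under any alternative: of 1824 refits of 78 such fold changes, 1707 kept the call and 117 lost it. Of 249 refits of the counts of carriers called, 227 stayed within 1.5 times the main count. Leaving out 1 sample at a time gave 3 to 10 carriers (P5 minus embryo, as deposited), 1 to 11 (the same, rescaled), 5 to 11 (adult minus P5, as deposited), 0 to 1 (E16.5 minus E14.5), 2 to 7 (P5 minus E18.5), 7 to 14 (4wk minus P5) and 2 to 8 (12wk minus 4wk). The lowest of the first 3 ranges were without P5 replicate 1; E14.5 replicate 1 and E16.5 replicate 2 each gave 0 for E16.5 minus E14.5; for P5 minus E18.5, E18.5 replicate 1 gave 3 and E18.5 replicate 2 and P5 replicate 1 each gave 2; 4wk replicate 2 gave 14 and 8 in the last 2, and 4wk replicate 1 gave 2 in the last. Leaving out both adipocyte-rich samples was an alternative chosen after seeing the data. In it P5 replicate 2 and 4wk replicate 2 are the only samples of their time points. A pseudocount of 0.1 gave 3 (E16.5 minus E14.5), 1 (E18.5 minus E16.5) and 13 (4wk minus P5). Voom on the recovered reads, also chosen after seeing the data, gave 3, 1, 8 and 14 for the first 4 intervals and 14 for adult minus P5 as deposited. The causes were not tested. In fits that leave 1 sample in a group, here and below, the spread comes from the other groups. Counts from such fits are not counts of replicated differences. Scaling to the total without 100 genes gave 4 carriers higher and 4 lower for adult minus P5, where the main rescaling gave 8 and 3, and Slc25a5 (0.84), Slc25a35 (0.98), Ucp2 (0.79) and, against the embryo, Slc25a39 (0.88) were not called with it. The replicate block gave 8 and 9 carriers for P5 minus embryo (as deposited and rescaled) and the main count in the other 9 comparisons; the numbers do not pair the samples. Over all genes, P5 minus embryo had 1798 and 1384 calls (as deposited and rescaled), 870 and 248 without P5 replicate 1, 1010 and 462 without both adipocyte-rich samples, and 2935 and 2599 with voom. Adult minus P5 had 3385 and 2136 calls, 5598 and 3388 with voom, and 5320 as deposited with a pseudocount of 0.1, which also moved the 5 intervals from 643, 364, 609, 2211 and 1006 to 1116, 566, 988, 3723 and 1832. The first 3 intervals had 1463, 850 and 1414 with voom, P5 minus E18.5 had 368 without P5 replicate 1, and 4wk minus P5 had 3556 as deposited. At 4wk the shallow samples limit low carriers: Slc25a27 rested on 26 and 11 reads.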
